A study of Mus musculus with 83 samples.

Results

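Class I major histocompatibility complex (MHC) molecules display peptides cut from a cell's own proteins to CD8 T cells. The heavy chain pairs with β2-microglobulin, proteasomes cut the peptides, a transporter carries them into the endoplasmic reticulum and a loading complex places them in the groove. Interferon γ is known to raise most genes of this pathway, among them the inducible subunits that replace the catalytic subunits of the proteasome, and the transactivator Nlrc5 binds class I promoters. In the colon, both the epithelium and the immune cells beneath it carry class I.

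The 10 genes described here were chosen by name, as the core of this pathway, out of 37764 genes in the count table. They are the heavy chains H2-K1 and H2-D1, the light chain B2m, the peptide transporter subunits Tap1 and Tap2, the loading factor Tapbp, the inducible proteasome subunits Psmb8, Psmb9 and Psmb10, and the transactivator Nlrc5. All 10 passed the filter on low counts, as did 18325 genes in all.

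RNA was sequenced from the proximal part of the colon of 83 male C57BL/6J/Ukj mice, 1 library per mouse. The labels name no treatment and 1 strain, and the whole tissue was taken, so each library mixes epithelium, muscle, stroma and immune cells. There were 16 mice at each of 3, 9 and 15 mo, 17 at 24 mo and 18 at 28 mo. Library preparation ran in 3 batches, and each batch held between 4 and 7 mice of each age. In bulk tissue, fewer cells of a type and less RNA per cell cannot be told apart.

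The libraries held between 23026370 and 75838290 counted read pairs, with a median of 35495123. Counting noise was exceeded in each of the 649 comparisons of 2 age-matched mice (chi-square per degree of freedom at least 10.9). All 8 markers of colon epithelium were detected, and their sum in CPM, counts scaled to the size of the library, ran from 21639.2 to 40368.8 over the 83 mice.

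To compare genes with each other, levels were set per combined length of all annotated exons of a gene, in TPM. This length was 860 bp for B2m, 3381 bp for Psmb8 and 3660 bp for Psmb9. It can exceed that of the transcripts present, so the order of the genes depends on the annotation. B2m was the most abundant, with a mean of 3472 TPM over the 83 mice (SD 595.5). H2-K1 at 1504 TPM (SD 221.7) and H2-D1 at 1440.4 TPM (SD 180.7) followed, and H2-K1 stood above H2-D1 in 71 of 83 mice. Both heavy chains belong to a family of near-identical genes, and only uniquely placed reads were counted, so their levels are uncertain. Tapbp had 250.7 TPM and Psmb10 had 195.8 TPM. Psmb8 had 78.5 TPM, Tap2 60.7 TPM and Tap1 53.1 TPM, and the order of the 2 transporter subunits held in 71 of 83 mice. Psmb9 had 31.6 TPM. Nlrc5 was the least abundant at 7.27 TPM (SD 3.31), below Psmb9 in all 83 mice. The other neighbours in this order kept their places in at least 81 of 83 mice.

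On chromosome 17 of GRCm38 lie 7 of these genes, inside or near the MHC. Running along it are Tapbp (33915899-33929292, plus strand), H2-K1 (33996017-34000347, minus strand), Psmb9 (34181987-34187764, minus strand), Tap1 (34187553-34197225, plus strand), Psmb8 (34197721-34201454, plus strand), Tap2 (34203527-34216321, plus strand) and H2-D1 (35262730-35267499, plus strand). B2m is on chromosome 2 (122147686-122153083, plus strand). Psmb10 (105935735-105938444, minus strand) and Nlrc5 (94434356-94527272, plus strand) are on chromosome 8. Psmb9 and Tap1 overlap on opposite strands, which strand-aware counting separates. Tapbp shares a stretch of its strand with Zbtb22, and Nlrc5 with Mir7072, so their counts can leave out reads there.

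RefSeq gives a start site and promoter window on GRCm38.p6 for 8 of the 10 genes. The stretches before the start are printed 5′ to 3′ along each gene's own strand, because the heavy chains and B2m share an arrangement of short motifs that the inducible proteasome genes do not. A search for 5 motifs covered both strands from 250 bases before to 50 bases after the start, and matches of different motifs were allowed to overlap. They were the interferon-stimulated response element, written as GAAA, any 2 bases and GAAA again, the gamma-activated site, TTC, any 3 bases and GAA, the κB site, GGG, any 2 bases and TTCC, the core TGACG known from the X box, and the inverted CCAAT box ATTGG known from the Y box. In that order they occur in 3.44%, 8.30%, 5.82%, 20.8% and 37.4% of the 32851 promoter windows. Capitals mark every match before the start.
H2-K1, chr17:34000348-34000597, minus strand: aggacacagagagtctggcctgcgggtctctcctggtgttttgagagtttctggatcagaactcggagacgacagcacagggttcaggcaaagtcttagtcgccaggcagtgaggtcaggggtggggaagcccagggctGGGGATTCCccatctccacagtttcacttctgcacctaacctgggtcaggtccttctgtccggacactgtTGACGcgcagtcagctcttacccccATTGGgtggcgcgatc
H2-D1, chr17:35262844-35263093, plus strand: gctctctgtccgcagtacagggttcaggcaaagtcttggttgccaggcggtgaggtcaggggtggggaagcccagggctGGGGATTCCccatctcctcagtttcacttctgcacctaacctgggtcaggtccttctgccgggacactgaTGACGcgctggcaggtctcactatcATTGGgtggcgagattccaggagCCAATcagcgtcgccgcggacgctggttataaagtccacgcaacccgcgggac
B2m, chr2:122147437-122147686, plus strand: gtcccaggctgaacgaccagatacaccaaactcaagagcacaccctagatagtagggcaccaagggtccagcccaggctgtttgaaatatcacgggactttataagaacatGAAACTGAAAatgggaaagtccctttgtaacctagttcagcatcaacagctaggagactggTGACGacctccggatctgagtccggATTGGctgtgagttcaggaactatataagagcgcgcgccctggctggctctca

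All 3 windows hold TGACG followed by ATTGG, 25 bases from the first base of one to the first base of the other. This pair at this distance was looked for after the matches were seen, and 31 of the 32851 windows hold it (0.0944%). Among the 10 genes only H2-K1, H2-D1 and B2m had it, of the 8 with a window. H2-K1 and H2-D1 also carry a κB match, 111 and 171 bases before the start. Lined up on that match without gaps, their windows share 166 of 190 bases (87.4%). The interferon-stimulated response element, in the exact form given above, matched in B2m only, 139 bases before the start. Looser forms of it were not searched for, so the heavy chain windows may hold one. RefSeq also gives H2-K1 a start at base 34000333, and the same pair stands before it.

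Tap1 and Psmb9 run away from each other. RefSeq places 225 bases between their starts, a stretch that lies before both, whereas the gene bounds of GENCODE given above overlap. Tapbp, Psmb8 and Psmb10 are shown beside it as the other members with a window.
Between Psmb9 and Tap1, chr17:34187331-34187555, written along the plus strand: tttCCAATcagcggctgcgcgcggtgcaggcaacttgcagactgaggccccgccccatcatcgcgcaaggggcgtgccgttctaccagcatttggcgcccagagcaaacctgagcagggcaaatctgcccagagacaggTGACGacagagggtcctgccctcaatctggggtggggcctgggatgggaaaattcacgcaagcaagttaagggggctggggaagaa
Psmb8, chr17:34197945-34198194, plus strand: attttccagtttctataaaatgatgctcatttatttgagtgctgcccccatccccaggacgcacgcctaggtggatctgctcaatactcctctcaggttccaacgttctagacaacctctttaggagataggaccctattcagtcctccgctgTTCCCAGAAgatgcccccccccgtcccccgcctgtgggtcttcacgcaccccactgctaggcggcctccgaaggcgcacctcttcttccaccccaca
Psmb10, chr8:105938393-105938642, minus strand: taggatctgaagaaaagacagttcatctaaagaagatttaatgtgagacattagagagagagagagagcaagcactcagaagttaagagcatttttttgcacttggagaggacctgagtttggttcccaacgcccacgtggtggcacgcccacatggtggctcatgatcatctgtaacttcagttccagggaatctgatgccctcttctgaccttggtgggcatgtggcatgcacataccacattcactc
Tapbp, chr17:33919228-33919477, plus strand: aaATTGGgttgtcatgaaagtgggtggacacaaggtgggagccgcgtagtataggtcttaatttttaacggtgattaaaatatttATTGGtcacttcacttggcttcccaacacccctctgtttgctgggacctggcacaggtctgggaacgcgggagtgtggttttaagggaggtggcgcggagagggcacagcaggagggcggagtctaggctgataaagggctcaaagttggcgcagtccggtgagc

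The stretch shared by Tap1 and Psmb9 holds TGACG and a CCAAT box read on the other strand. Psmb8 has a gamma-activated site 97 bases before its start, and Tapbp has 2 inverted CCAAT boxes. Psmb10 has none of the 5 motifs in its window. A match only describes these letters, and a window without one tells nothing of the factor. No window for Tap2 or Nlrc5 was in the table.

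**Figure D1:**
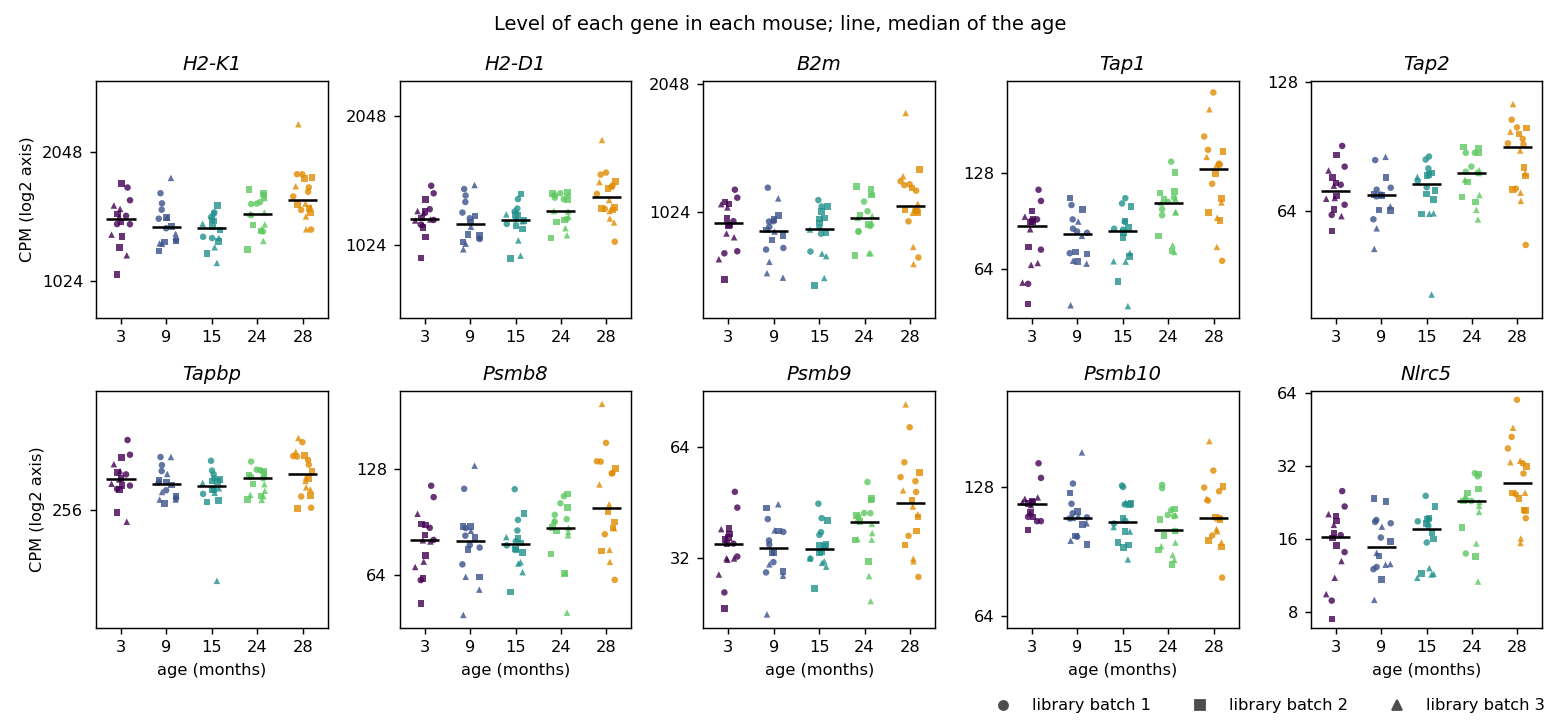
Level of each of the 10 genes in CPM (log2 axis) in each of 83 mice by age in months; each point is 1 mouse, its shape the library batch, and the line is the median of the age. The groups overlap for every gene, Tap1 and Nlrc5 have the largest shift of the 28-mo median, and single 28-mo mice sit well above the rest.

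Most members were higher in the oldest mice than in the youngest, by unequal amounts. Between 28 and 3 mo, 8 of 10 genes rose and none fell in edgeR's quasi-likelihood test at a Benjamini-Hochberg adjusted p below 0.1. In the same comparison 23.5% of all 18325 genes rose. The median log2 fold change was 0.23 over the 10 genes and -0.01 over all genes tested. Nlrc5 and Tap1 had the largest rises, while Psmb10 and Tapbp did not pass the test. From here on, levels are CPM scaled by TMM factors, and differences are log2 fold changes of the older minus the younger age.

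Nlrc5, the class I transactivator, lay between 7.48 and 25.3 CPM at 3 mo, with a median of 16.4 CPM. Its median was 14.8 CPM at 9 mo (8.97 to 23.6) and 17.6 CPM at 15 mo (11.1 to 24.1). It reached 22.98 CPM at 24 mo (10.7 to 30.0) and 27.4 CPM at 28 mo (15.4 to 60.2). Of the 18 oldest mice, 16 stood above the 3-mo median and 9 above the highest 3-mo mouse, so the ages overlapped. The log2 fold change from 3 to 28 mo was 0.91 ± 0.14 (SE, edgeR adjusted p = 2.56e-07), a 1.88-fold rise. Within the 3 library batches the difference in mean log2 CPM was 1.03, 0.68 and 0.92.

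Tap1 encodes one subunit of the transporter that moves peptides into the endoplasmic reticulum. At 3 mo it lay between 49.7 and 113.5 CPM, with a median of 87.5 CPM. Its medians at 9 and 15 mo were 82.2 CPM (49.2 to 107.0) and 84.2 CPM (48.9 to 106.8). Neither mid-life age reached above the highest 3-mo mouse. The median was then 103.2 CPM at 24 mo (72.3 to 139.2) and 131.6 CPM at 28 mo (67.8 to 229.7). At 28 mo 11 of 18 mice stood above the highest 3-mo mouse. The log2 fold change from 3 to 28 mo was 0.66 ± 0.11 (SE, edgeR adjusted p = 7.14e-07), and it was 0.67, 0.48 and 0.71 within the batches.

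Tap2, its partner in the transporter, changed less. It ran from 57.3 to 90.7 CPM at 3 mo (median 71.2) and from 53.2 to 113.7 CPM at 28 mo (median 90.0). The medians between were 69.55 CPM at 9 mo, 73.85 CPM at 15 mo and 78.5 CPM at 24 mo. At 28 mo 9 of 18 mice exceeded the highest 3-mo mouse. Its log2 fold change from 3 to 28 mo was 0.26 ± 0.07 (SE, edgeR adjusted p = 0.00214), and 0.20, 0.26 and 0.27 within the batches.

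Tapbp encodes tapasin, which holds empty class I molecules at the transporter. Its medians stayed between 291.6 and 309.9 CPM over the 5 ages. It ran from 239.9 to 372.7 CPM at 3 mo and from 257.5 to 376.9 CPM at 28 mo, and 1 of 18 of the oldest mice was above the highest 3-mo mouse. Its log2 fold change was 0.04 ± 0.05 (SE, edgeR adjusted p = 0.553). The lowest value, 174.5 CPM, belonged to 15-mo mouse 16, which was the lowest of its age for 5 of the 10 genes and had the highest scaling factor of its age (1.1).

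The heavy chains present the peptide. H2-K1 ran from 1058.4 to 1726.6 CPM at 3 mo (median 1423.7) and from 1347.4 to 2377.8 CPM at 28 mo (median 1580.5). Its medians at 9, 15 and 24 mo were 1364, 1356.1 and 1468 CPM. Of the 18 oldest mice, 16 stood above the 3-mo median and 5 above its highest mouse. H2-D1 ran from 955.2 to 1408.9 CPM at 3 mo (median 1179.7) and from 1041.9 to 1803.4 CPM at 28 mo (median 1326.3). The log2 fold change from 3 to 28 mo was 0.21 ± 0.06 for H2-K1 (SE, edgeR adjusted p = 0.0019) and 0.16 ± 0.05 for H2-D1 (adjusted p = 0.00592). H2-K1, H2-D1 and the related H2-Q genes have similar exons, and reads that fit more than one of them were not counted.

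B2m encodes the light chain that pairs with both of these heavy chains. It ran from 713.4 to 1157.8 CPM at 3 mo (median 967.5) and from 775.5 to 1750.2 CPM at 28 mo (median 1057.7). Of the 18 oldest mice, 7 exceeded the highest 3-mo mouse. The rise from 3 to 28 mo was 0.20 ± 0.07 on the log2 scale (SE, edgeR adjusted p = 0.0182), close in size to that of the heavy chains.

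Psmb8 and Psmb9 replace the chymotrypsin-like and caspase-like subunits of the proteasome. Psmb8 ran from 53.1 to 114.6 CPM at 3 mo (median 80.35) and from 62.0 to 195.7 CPM at 28 mo (median 99.3). Psmb9 ran from 23.3 to 48.3 CPM at 3 mo (median 34.9) and from 28.3 to 83.5 CPM at 28 mo (median 44.9). Of the 18 oldest mice, 14 were above the 3-mo median for each of these genes, and 8 for Psmb8 and 7 for Psmb9 were above the highest 3-mo mouse. The log2 fold change from 3 to 28 mo was 0.40 ± 0.11 for Psmb8 (SE, edgeR adjusted p = 0.00163) and 0.44 ± 0.10 for Psmb9 (adjusted p = 0.000131). Within the batches the differences were 0.35, 0.35 and 0.37 for Psmb8 and 0.41, 0.32 and 0.45 for Psmb9.

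Psmb10, which replaces the trypsin-like subunit, did not pass the test between 3 and 28 mo. Its medians were 116.6 CPM at 3 mo, 108.6 CPM at 9 mo, 105.9 CPM at 15 mo, 101.4 CPM at 24 mo and 108.3 CPM at 28 mo. At 28 mo it ran from 78.6 to 164.0 CPM against 101.5 to 145.5 CPM at 3 mo, and 7 of 18 oldest mice were above the 3-mo median. From 3 to 28 mo its log2 fold change was -0.06 ± 0.06 (SE, edgeR adjusted p = 0.419). It was -0.04 without 28-mo mouse 13 and -0.11 without mice 1 and 7 (edgeR adjusted p = 0.64 and 0.119).

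**Figure D2:**
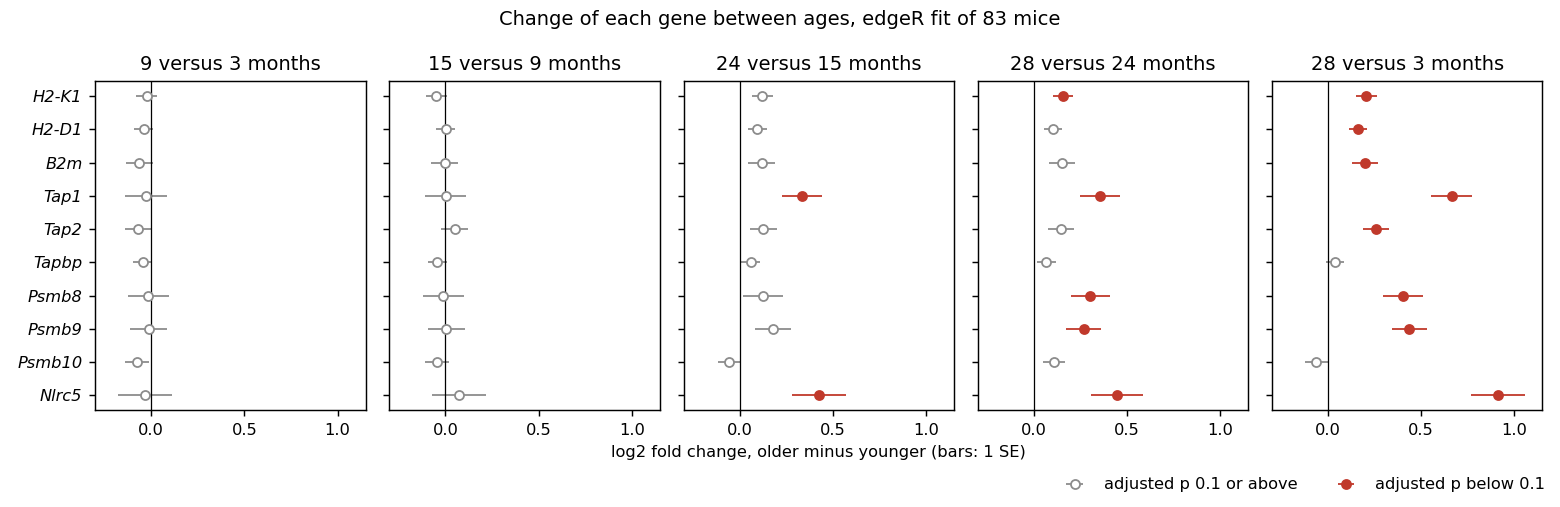
Log2 fold change (older minus younger, bars 1 SE) of each gene over the 4 steps between ages and from 3 to 28 mo; filled points have an adjusted p below 0.1. No point is filled before 15 mo, 2 are at the 24 versus 15 mo step, 5 at the 28 versus 24 mo step and 8 from 3 to 28 mo.

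The steps between neighbouring ages show when the levels moved. Between 3 and 9 mo no member changed, with log2 fold changes from -0.08 to -0.01. By comparison, 8.69% of all genes changed in that step. Between 9 and 15 mo no member changed either, with log2 fold changes from -0.05 to 0.07, against 0.431% of all genes. In both steps 0 of 10 members had an unadjusted p below 0.05 in edgeR, and DESeq2 called 0 as well.

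Between 15 and 24 mo 2 members rose, Tap1 by 0.335 ± 0.11 (SE, edgeR adjusted p = 0.0443) and Nlrc5 by 0.42 ± 0.14 (adjusted p = 0.0538). In that step 6.28% of all genes rose. The other members ran from -0.05 for Psmb10 to 0.18 for Psmb9. A fit of only the 2 ages called 5 members, adding H2-K1, Tap2 and Psmb9. In this step 4 of 6 macrophage markers and 4 of 5 endothelial markers rose too, and their part in the members' rise was not tested.

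Between 24 and 28 mo 5 members rose and all 10 log2 fold changes were above 0, while 5.66% of all genes rose. Nlrc5 rose by 0.45 ± 0.14 (SE, edgeR adjusted p = 0.0329) and Tap1 by 0.35 ± 0.11 (adjusted p = 0.0272). Psmb8 rose by 0.30, Psmb9 by 0.27 and H2-K1 by 0.16, with adjusted p of 0.0627, 0.0643 and 0.0652. With no filter on low counts these 3 did not pass (edgeR adjusted p = 0.106, 0.1102 and 0.127). In a fit of only the 2 ages Psmb8 (adjusted p = 0.1104) and Psmb9 (adjusted p = 0.142) did not pass, nor did Psmb9 with the replicate number as a block (adjusted p = 0.1045). Psmb10 differed by 0.11 ± 0.06 (SE), without passing the test (edgeR adjusted p = 0.291), and by 0.07 without 28-mo mouse 1 (adjusted p = 0.515). The within-batch differences for Nlrc5 were 0.53, 0.15 and 0.50. Of 6 B cell markers 6 fell in this step, of 4 plasma cell markers 3 and of 4 fibroblast markers 2, while 1101 of all 18325 genes fell. The part of these cells in the step was not tested. None of the 8 T cell or 6 macrophage markers passed the edgeR test or had an unadjusted p below 0.05.

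This step rests on few mice. Mouse 1 of the 28-mo group was the highest of its age for 8 of the 10 genes, and mouse 7 for the other 2. Without mouse 1 the step called 2 members, without mouse 7 it called 3, and without both it called 0, with 3 members at an unadjusted p below 0.05. Over all genes the calls were 2139 with every mouse, 2028 without mouse 1, 1643 without mouse 7 and 1586 without both. Nlrc5 then differed by 0.30 ± 0.13 (SE, edgeR adjusted p = 0.175) and Tap1 by 0.23 ± 0.10 (adjusted p = 0.162). Mouse 13 was the lowest of its age for 7 genes, and without it the step called 8 members and 2156 genes in all. From 3 to 28 mo, 8 members rose in each of these fits, with Nlrc5 at 0.78 ± 0.14 (SE) and Tap1 at 0.55 ± 0.10 (SE) without mice 1 and 7.

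Over all 5 ages together, 8 of 10 members changed with age, the same 8 that rose from 3 to 28 mo. The share among all genes was 54.9%. Tapbp (edgeR adjusted p = 0.191) and Psmb10 (adjusted p = 0.145) did not pass. Leaving out 28-mo mouse 9 or 17 added Tapbp, which gave 9 members, and leaving out mouse 13 added both, which gave 10.

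A test of departure from a straight line over age asks whether a level changed at an uneven rate. It called 3 members, Tap1 (edgeR adjusted p = 0.0309), H2-K1 (adjusted p = 0.0443) and Nlrc5 (adjusted p = 0.0619), against 16.2% of all genes. The mean of Tap1 was 81.5 CPM (SD 18.3, n = 16), 80.6 CPM (SD 15.2, n = 16), 81.0 CPM (SD 16.1, n = 16), 100.4 CPM (SD 18.2, n = 17) and 129.7 CPM (SD 42.2, n = 18) over the 5 ages. The count was 8 without 28-mo mouse 13, 5 without mouse 12, 4 without mouse 16 or 17, and 2 without mouse 7, where Nlrc5 was lost.

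Mice of the same age differed widely. At 28 mo, mouse 1 had 1750.2 CPM of B2m and the next mouse 1289.9 CPM. For Psmb8 mouse 1 had 195.7 CPM and the next mouse 151.7 CPM. Its summed T cell markers were 75.5 CPM, the highest of 18 mice, against an age median of 33.0 CPM. Its 10 MHC class II genes summed to 5247 CPM against a median of 1728.6 CPM. Mouse 7 had 32.01 CPM of T cell markers, rank 11 of 18, and 2374.7 CPM of class II genes, rank 4. Interferon γ target genes summed to 1558.3 CPM in mouse 7, rank 1, and to 1291.8 CPM in mouse 1, rank 3. The age median of these target genes was 820.3 CPM. The B cell markers of mice 1 and 7 summed to 6.52 and 7.084 CPM, the lowest of the 18 mice, against a median of 16.96 CPM. Their plasma cell markers, at 380.5 and 269.0 CPM, were also the lowest, against a median of 746.8 CPM. The part of these cells and of this program in the members' levels was not tested.

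The spread between mice was tested with a Brown-Forsythe test across the 5 ages on log2 CPM. The SD was largest at 28 mo for 9 of 10 members, and for 25.5% of all genes. For Psmb9 the SD was 0.25, 0.26, 0.15, 0.22 and 0.41 from 3 to 28 mo, and for Tap1 0.33, 0.26, 0.24, 0.25 and 0.46. No member passed an adjusted p of 0.1, and 1 of 10, Psmb9, had an unadjusted p below 0.05 (adjusted p = 0.465). Of all 18325 genes 0.327% passed this test, and 1810 had an unadjusted p below 0.05. Nlrc5 had an SD of 0.49 at 3 mo and 0.50 at 28 mo, wider than the median gene at 0.20 at both ages.

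**Figure D3:**
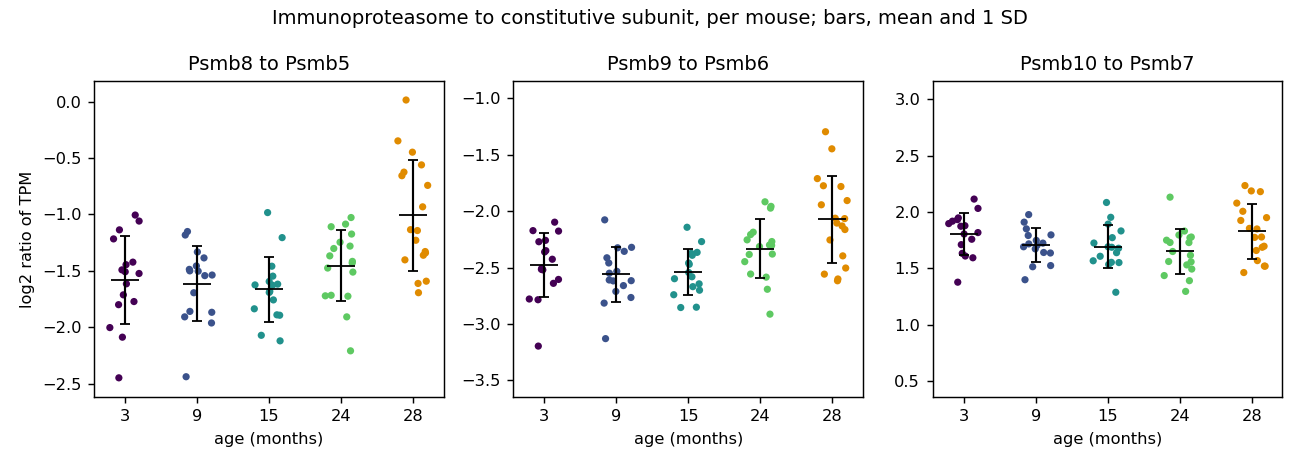
Log2 ratio of TPM of each inducible subunit to the constitutive subunit it replaces, in each of 83 mice by age in months; bars are the mean and 1 SD. The ratios of Psmb8 to Psmb5 and of Psmb9 to Psmb6 are higher at 28 than at 3 mo, and that of Psmb10 to Psmb7 is lowest at 24 mo.

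Each inducible subunit takes the place of a constitutive one, so the ratio within a mouse does not depend on scaling between libraries. Psmb8 stood at a median of 0.3497 times Psmb5 in TPM at 3 mo, with mice from 0.183 to 0.498. At 28 mo the median was 0.454 times and the mice ran from 0.309 to 1.01. The size of such a ratio depends on the exon lengths used, but its difference between ages does not. In CPM, without lengths, the mean at 3 mo was 80.79 for Psmb8 and 63.21 for Psmb5. The log2 ratio was -1.58 ± 0.39 (SD, n = 16) at 3 mo and -1.01 ± 0.49 (SD, n = 18) at 28 mo. The difference was 0.571, and 15 of 18 oldest mice lay above the 3-mo median (two-sided permutation test, p = 0.00074, adjusted p = 0.00952 over 15 comparisons). Psmb5 itself fell from 3 to 28 mo, by 0.19 on the log2 scale (edgeR adjusted p = 0.00079).

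Psmb9 stood at a median of 0.181 times Psmb6 at 3 mo and 0.236 times at 28 mo. The log2 ratio rose by 0.406 (permutation test, adjusted p = 0.00952), and by 0.475, 0.273 and 0.421 within the batches. It rose by 0.209 between 15 and 24 mo (adjusted p = 0.0601) and by 0.259 between 24 and 28 mo (adjusted p = 0.0666). The latter did not pass without 28-mo mouse 1 (0.213, adjusted p = 0.121) or mouse 7 (0.222, adjusted p = 0.119). Psmb6 differed by -0.0035 ± 0.04 (SE, edgeR adjusted p = 0.953) from 3 to 28 mo.

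Psmb10 was more abundant than Psmb7 at every age, with medians from 3.139 to 3.595 times its TPM. The log2 ratio differed by 0.0234 between 3 and 28 mo, and 9 of 18 oldest mice lay above the 3-mo median (permutation test, adjusted p = 0.816). Without 28-mo mouse 1 the difference was -0.0005. It rose by 0.18 between 24 and 28 mo (adjusted p = 0.0666), which did not pass without mouse 1 (adjusted p = 0.121) or mouse 7 (adjusted p = 0.119). Of the 15 comparisons 6 passed, and the ratio of Psmb8 to Psmb5 rose by 0.446 between 24 and 28 mo (adjusted p = 0.0153). Between 15 and 24 mo its difference of 0.21 did not pass (permutation test, adjusted p = 0.123), but it did when mice were permuted within library batches (adjusted p = 0.0917), which made 7 of 15.

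**Figure D4:**
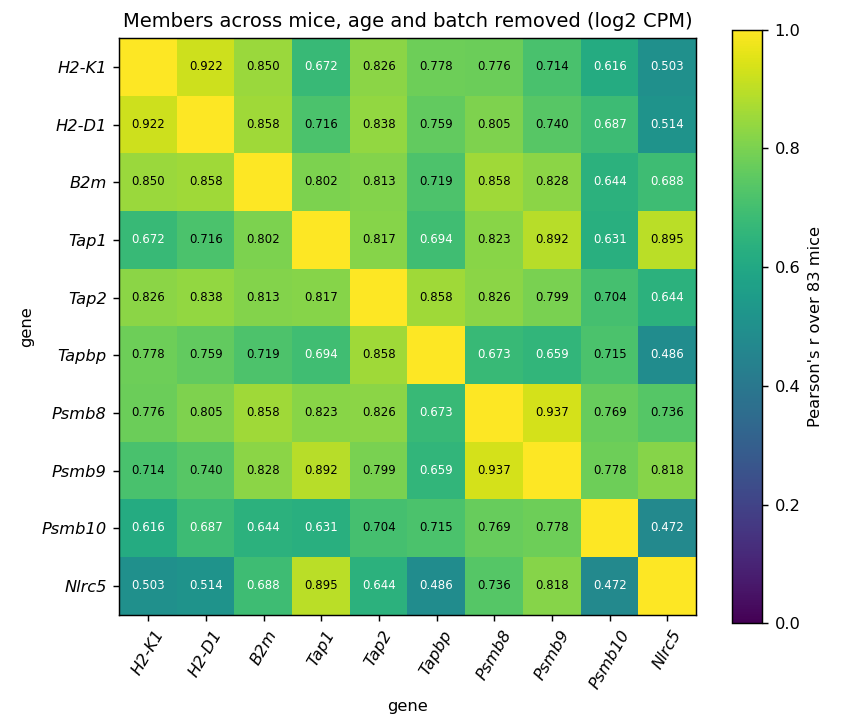
Pearson's r between each pair of the 10 genes over 83 mice, on log2 CPM with the means of age and batch removed; the colour runs from 0 to 1. All 45 values lie between 0.472 and 0.937, and the lowest are those of Nlrc5 with Psmb10, Tapbp, H2-K1 and H2-D1.

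The members were correlated with each other over the 83 mice. With age and batch means removed, all 45 pairs over 83 mice had an adjusted permutation p of 1e-05 for Pearson's r, the smallest that 100000 permutations can give, and of at most 5e-05 for Spearman's rho. The value of r ran from 0.472 to 0.937 with a median of 0.769, and that of rho from 0.439 to 0.919 with a median of 0.751. Leaving out the 2 mice farthest from the median of the first gene of each pair gave r from 0.384 to 0.916. Within the batches the median r was 0.794, 0.742 and 0.795, and the lowest of any pair was 0.397. The values of a mouse share a library, its depth and its mix of cells, and the part of these was not tested.

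By Pearson's r the tightest pair was Psmb8 and Psmb9, with r = 0.937 and rho = 0.881 (permutation p = 1e-05 for both), and without 2 mice r = 0.916. H2-K1 and H2-D1 came next by r, with r = 0.922 and rho = 0.919 (permutation p = 1e-05 for both), and without 2 mice r = 0.898. Reads that these near-identical genes share were not counted, so this r is uncertain, like their levels. Nlrc5 was tied most closely to Tap1, with r = 0.895 and rho = 0.897 (permutation p = 1e-05 for both), and without 2 mice r = 0.897. Tap1 with Psmb9 had r = 0.892 and rho = 0.87 (permutation p = 1e-05 for both), and without 2 mice r = 0.865. Nlrc5 with H2-K1 had r = 0.503 (permutation p = 1e-05) and rho = 0.462 (permutation p = 4e-05), and without 2 mice r = 0.481. Psmb10 and Nlrc5 were the loosest, with r = 0.472 (permutation p = 1e-05) and rho = 0.439 (permutation p = 5e-05), and without 2 mice r = 0.384. The median r of the 45 pairs was 0.786, 0.717, 0.634, 0.724 and 0.885 within the ages from 3 to 28 mo. For the 9 pairs of Nlrc5 this median was 0.750, 0.283, 0.577, 0.594 and 0.808 in the same order, lowest at 9 mo. The lowest values within an age were -0.109 for Nlrc5 with H2-K1 and -0.0251 for Nlrc5 with H2-D1, both at 9 mo, and 0.091 for H2-K1 with Psmb10 at 15 mo.

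The genes most like the members over the mice were ranked by their mean r with the 10 members, among 14952 other genes of at least 1 CPM. H2-Q4, a nonclassical class I heavy chain, came first with a mean r of 0.764. Psme1, a subunit of the proteasome activator that interferon γ induces, was next with 0.741, and Upp1, a uridine phosphorylase, had 0.736. H2-Q6 (0.726), Samhd1 (0.726), which breaks down nucleotides, and H2-T22 (0.714) followed. Il18bp, a secreted inhibitor of interleukin 18, had 0.695, the GTPase gene Igtp 0.695, H2-Q7 0.693 and the class II loading gene H2-DMa 0.691. Of these 10, 4 are class I heavy chains, whose reads can be shared with H2-K1 and H2-D1.

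**Figure D5:**
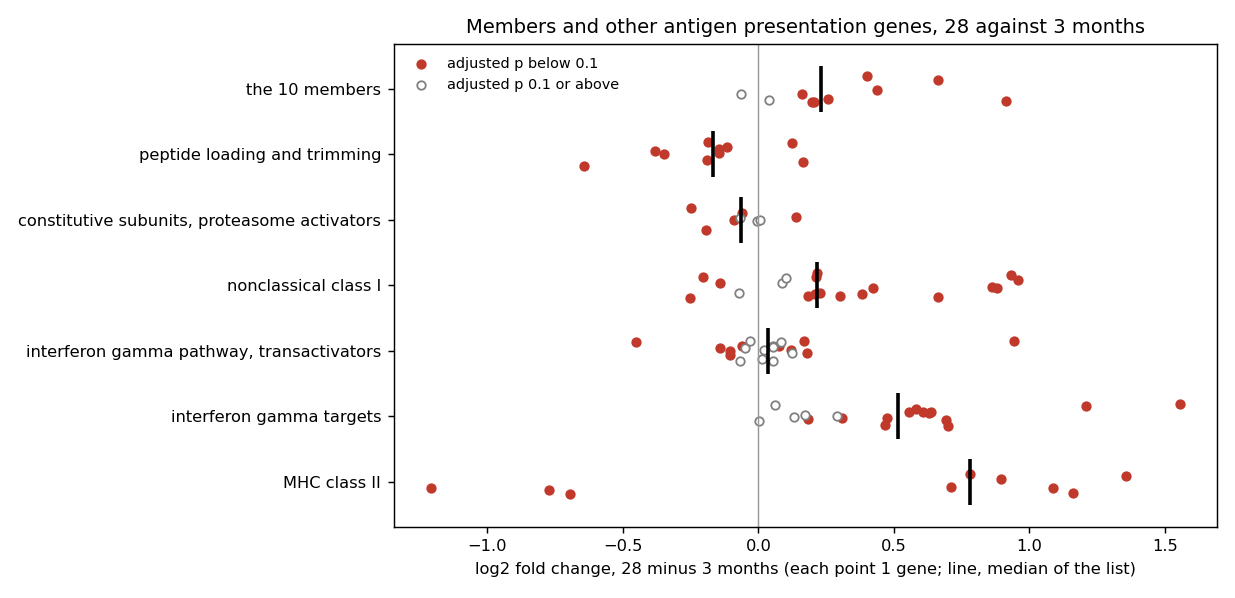
Log2 fold change from 3 to 28 mo of the 10 members and of 6 lists of related genes; each point is 1 gene, filled where the adjusted p is below 0.1, and the black line is the median of the list. The medians of the interferon γ targets (0.52) and MHC class II genes (0.78) lie further right than that of the members (0.23), although 3 class II genes lie left of 0, and the peptide loading list lies mostly left of 0.

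Beside the members, 6 lists of related genes were followed from 3 to 28 mo. In that comparison 23.5% of all genes rose and 25.9% fell. Of 10 genes for peptide loading and trimming, 2 rose and 8 fell, with a median log2 fold change of -0.17. The rising genes were Tapbpl (0.17), a relative of tapasin, and the aminopeptidase Lnpep (0.12), and without mice 1 and 7 Tapbpl did not pass (0.12, edgeR adjusted p = 0.116). The chaperones Hspa5 (-0.64 ± 0.10, SE, edgeR adjusted p = 1.58e-07) and Calr (-0.38 ± 0.06, SE, adjusted p = 1.2e-06), the latter part of the loading complex, had the largest falls. Both also serve the folding of many other proteins.

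Of 8 genes for constitutive catalytic subunits and proteasome activators, 1 rose and 4 fell. Psme1 rose by 0.14 ± 0.04 (SE, edgeR adjusted p = 0.00718). The call of Psme4 (-0.06, adjusted p = 0.0921) was lost without any 1 of the 28-mo mice other than 3, 8 and 13, and without 15-mo mouse 16. The 4 lower genes became 2 without mouse 2, 4, 6 or 9 and 3 without any of the other mice whose loss dropped Psme4. Psme3, which encodes a nuclear activator, fell by 0.25 (adjusted p = 1.99e-06) and Psmb5 by 0.19. Psmb7 fell by 0.09 (adjusted p = 0.0436), a call that was lost without 28-mo mouse 2 (adjusted p = 0.14), 4 (adjusted p = 0.108), 6 (adjusted p = 0.12) or 9 (adjusted p = 0.1405). Psmb6 and Psme2, the partner of Psme1, had log2 fold changes of -0.0035 and 0.0052 and did not pass.

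Of 20 nonclassical class I genes 19 were tested, 13 rose and 3 fell, with a median log2 fold change of 0.22. H2-Q6 rose by 0.96 ± 0.12 (SE, edgeR adjusted p = 1.47e-09), from a median of 42.9 CPM (26.8 to 56.45) to 71.4 CPM (45.96 to 176.9). H2-Q10, which encodes a secreted heavy chain, rose by 0.93 ± 0.11 (SE, adjusted p = 1.19e-10). The reads of these genes can also be shared within the family. Azgp1, a secreted protein with a class I fold, fell by 0.25 and H2-T3, the thymus leukemia antigen of intestinal epithelium, by 0.21.

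Of 21 genes of the interferon γ pathway and the class I transactivators, 20 were tested, 5 rose and 5 fell, with a median of 0.04. Ciita, which is the class II transactivator and a relative of Nlrc5, rose by 0.94 ± 0.17 (SE, edgeR adjusted p = 4.36e-06), from a median of 12.8 CPM (7.88 to 19.4) to 23.2 CPM (11.01 to 70.7). Irf9, an interferon regulatory factor, rose by 0.18. Nfya, a subunit of the factor that binds the CCAAT box, fell by 0.45 ± 0.06 (SE, adjusted p = 9.73e-09) and Creb1, known to bind the X box, fell by 0.14. Irf1 differed by 0.05 ± 0.06 (SE, edgeR adjusted p = 0.518). Ifng itself, the gene of the cytokine, was below the filter, with medians of 0.129 CPM at 3 mo and 0.19 CPM at 28 mo and no more than 59 counts in any of the 28-mo mice.

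Of 18 interferon γ targets, 13 rose and none fell, with a median of 0.52. Iigp1, an interferon-induced GTPase, rose by 1.56 ± 0.26 (SE, edgeR adjusted p = 1.36e-06), from 26.7 CPM (9.39 to 55.1) to 54.6 CPM (26.7 to 302.3) in medians. Ubd, a ubiquitin-like modifier, rose by 1.21 ± 0.27 (SE, adjusted p = 0.00016), and without 28-mo mouse 1 by 0.65 (adjusted p = 0.0053). Without mouse 1 the chemokine gene Cxcl9 did not pass (0.38, adjusted p = 0.113), against 0.69 with it (adjusted p = 0.0105). Without mouse 1 the list had 12 higher and 1 lower gene, and without mice 1 and 7 it had 10 higher and 1 lower. The lower gene was Ido1, an enzyme of tryptophan breakdown, at -0.46 without mouse 1 (adjusted p = 0.0369) and 0.003 with it (adjusted p = 0.9935), named after its values were seen.

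Of 10 MHC class II genes 9 were tested, 6 rose and 3 fell, with a median of 0.78. H2-DMb1, which helps to load peptides, rose by 1.36 ± 0.17 (SE, edgeR adjusted p = 3.63e-10). Cd74, the invariant chain, rose by 1.16 ± 0.16 (SE, adjusted p = 1.94e-08), from a median of 363.7 CPM (248.4 to 523.9) to 764.2 CPM (331.2 to 2312.7). H2-Ob fell by 1.21 and H2-DMb2 by 0.77. H2-Ob is known mainly from B cells, 5 of 6 B cell markers fell in the same comparison, and the part of these cells in its fall was not tested.

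The markers of the cell types that could carry these genes moved unequally from 3 to 28 mo. Of 6 macrophage markers 5 rose, and their sum ran from 109.7 to 171.0 CPM at 3 mo and from 103.8 to 260.0 CPM at 28 mo. Of 8 T cell markers 3 rose, Cd8a, Cd8b1 and Cd5, and their sum ran from 22.3 to 40.8 CPM and from 19.65 to 75.5 CPM. Of 6 cytotoxic and natural killer cell markers 3 rose and 1 fell (14.9 to 48.9 CPM and 22.2 to 58.7 CPM), and the B cell markers summed to 7.50 to 91.5 CPM and 6.52 to 28.7 CPM. Of 3 leukocyte markers 1 rose, with sums of 83.75 to 157.1 CPM and 63.3 to 159.2 CPM. Of 5 endothelial markers 4 rose (94.5 to 114.7 CPM and 104.1 to 151.5 CPM), and of 8 epithelial markers 3 fell (29604.7 to 38128.4 CPM and 28565.5 to 37504.3 CPM). None of the 4 plasma cell, 5 dendritic cell, 5 smooth muscle or 3 enteric glia markers passed the edgeR test, nor had any an unadjusted p below 0.05, and of 4 fibroblast markers 1 rose and 2 fell. The part of these cells in the rise of the members was not tested.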

How the data were processed

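Colon RNA of 83 mice was sequenced as stranded, polyA-selected pairs of 100 bp. The authors trimmed reads with cutadapt 2.8 and PrinSeq, aligned them to GRCm38 with HISAT2 2.1.0, kept uniquely mapped reads with SAMtools 1.9 and counted proper pairs per gene by strand with featureCounts (Subread 2.0.1), and they deposited the raw counts of 37764 genes. Uniquely mapped reads leave out those shared by near-identical class I genes. Mice are separate samples per the labels, and groups come from the labelled age.

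From these counts edgeR 4.0.16 (R 4.3.3) fitted age and library batch in all mice, after its filter on low counts (18325 genes) and TMM scaling, with a quasi-likelihood F-test and Benjamini-Hochberg adjustment over all genes at 0.1. Departure from a straight line compared age groups with age as a number. CPM used TMM factors, TPM used GENCODE M21 exon lengths, and log2 CPM used a prior count of 2. Spread was tested by Brown-Forsythe, and ratios and correlations by 100000 two-sided permutations. Scripts were tested on simulated data. Promoter windows came from RefSeq for 8 of 10 members.

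The members and gene lists were chosen with earlier results of these data known. Named genes are the 10 members, up to 4 genes of each list (the 2 largest changes in each direction from 3 to 28 mo among those that passed, and any that carries a comparison) and the 10 genes of highest mean r with the members. Exceptions, named after their values were seen, are Cxcl9, Ido1, Psme4, Irf1, Psme2, Ifng and the marker genes. Replicate numbers did not pair mice. Alternatives were DESeq2 1.42.0, its size factors, other filters, no batch term, a replicate block, a threshold of 0.05, fits of 2 ages, another prior count of 0.5, permutation within batches and, chosen after seeing the data, mice left out. Results for certain genes are not reported here.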

Additional observations from a re-analysis of the deposited data

How the results depend on the processing

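The 8 members higher at 28 than at 3 mo, and the 0 members called between 3 and 9 mo and between 9 and 15 mo, were the same number under each alternative run. Between 15 and 24 mo the count of 2 became 1 at a threshold of 0.05 and 5 in a fit of only those ages. Between 24 and 28 mo the count of 5 became 2 at 0.05, 3 in a fit of only those ages and 2 with no filter on low counts. Leaving out 1 of the 28-mo mice in turn, chosen after seeing the data, gave 2 to 8 members in that step and 2 to 8 for the departure from a straight line, and leaving out mice 1 and 7 together gave 0 in that step. The difference in the ratio of Psmb10 to Psmb7 from 3 to 28 mo turned to -0.0005 without mouse 1 and was 0.0023 without mouse 7. With the replicate block the 24 to 28 mo step called 4 members, losing Psmb9 (adjusted p = 0.1045), and the other counts did not move. The numbers do not pair mice: same-numbered mice of different ages had correlations from -0.314 to 0.29 (median 0.0103, 161 pairs), and 3 of 83 mice correlated best with their own number. The cause of these shifts was not tested.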
